A study of Mus musculus with 74 samples.

Results

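Interferon-stimulated genes are the genes that a cell switches on when interferon binds its receptors. The 45 genes described here were listed by name. Their rule holds no threshold on expression, but the list was drawn up with earlier results of these data known. Of these, 44 were found among the 17853 genes counted in the series, and 43 could be tested in at least 1 comparison. Xaf1 was in no table, and Herc6 had a mean level of 1.46 CPM (counts scaled to a common library total) and never passed the filter on low counts. By role, the 44 are sensors of foreign nucleic acid, signalling factors, the ISG15 modifier system, the IFIT, OAS and MX proteins, other antiviral proteins, PARP enzymes, interferon-induced GTPases and secreted proteins.

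Type I and type III interferons activate the kinases JAK1 and TYK2, which phosphorylate STAT proteins. STAT2 and IRF9 are parts of the complex ISGF3, which binds interferon-stimulated response elements in the promoters of the genes, while interferon gamma acts at gamma-activated sites. Interferon-stimulated genes are best known from virus infection, but thymic medullary epithelium is also known to make interferon beta and interferon lambda in uninfected mice.

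The study profiled mTEChi, the mature fraction of medullary thymic epithelial cells, from mice carrying different Aire alleles. AIRE is the nuclear regulator that lets these cells transcribe genes normally restricted to other organs. Cells were sorted from thymi of mice aged 4-7 weeks and their RNA was counted by bulk MARS-seq, a method that counts transcripts from their 3′ ends. In all, 74 libraries lie in 6 count tables, and 73 of them belong to 21 groups.

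On the C57BL/6 strain (B6), 4 tables each held their own wild-type libraries. The null table had 3 Aire +/+, 5 Aire +/- and 4 Aire -/- libraries, and the Y86C table had 3 Aire +/+, 3 Aire +/Y86C and 3 Aire Y86C/Y86C. The C313X table had 3 Aire +/+, 2 Aire +/C313X and 3 Aire C313X/C313X, where X is a stop codon by the usual notation. The C442G table had 3 Aire +/+, 5 Aire +/C442G and 6 Aire C442G/C442G. On the NOD strain, which develops diabetes spontaneously, the V303M table had 3 Aire +/+, 3 Aire +/V303M and 3 Aire V303M/V303M. The remaining NOD table had 5 Aire +/+ and 4 Aire +/C313Y libraries, 3 Aire -/C313Y with a wild-type set of 3, and 3 Aire +/- and 3 Aire -/- libraries without a wild type of their own. All mutations are germline alleles, so every cell of the mouse carried them, and the number of founders behind each line is not given in the sources used here. The labels do not state that the libraries of a group came from separate mice, so the p-values measure the spread between these libraries, which may be technical. A sorted bulk library cannot tell fewer cells with the transcripts apart from less of each transcript per cell.

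The promoter letters are shown first. The stretches printed below come only from members whose windows hold the response-element letters, some that later fall and some that later rise. RefSeq entries (GRCm38.p6, from 250 bases before to 50 bases after the transcript start) were found for 34 of the members. The letters of an interferon-stimulated response element, GAAA, any 2 bases and GAAA again, or TTTC, any 2 bases and TTTC where the element is on the other strand, stood in 19 of those 34 windows (55.9%), against 3.99% of 27025 genes with an entry. The letters of a gamma-activated site, TTCNNNGAA, which reads the same on both strands, stood in 8 of 34 (23.5%), against 9.55% of genes. The 2 motifs overlapped in the windows of Bst2 and Ifitm3. A match is a description of the letters and not evidence of binding, and its absence says only that these letters are not in this window. In the stretches below, written 5′ to 3′ on the strand of the gene, capitals mark the response-element letters. Isg15 (chr4:156200819-156200908, minus strand), Ifit3 (chr19:34583361-34583470, plus strand), Rsad2 (chr12:26456475-26456584, minus strand) and Gbp2 (chr3:142620592-142620662, plus strand) are members that fell in most mutants. Ifit1 (chr19:34640773-34640882, plus strand) and Cxcl10 (chr5:92349005-92349114, minus strand) are members that rose. All lie before the start of the table's transcript, and the Ifit3 stretch lies inside the span RefSeq gives the gene.
Isg15: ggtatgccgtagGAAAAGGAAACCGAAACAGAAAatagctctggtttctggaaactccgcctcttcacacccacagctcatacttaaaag
Ifit3: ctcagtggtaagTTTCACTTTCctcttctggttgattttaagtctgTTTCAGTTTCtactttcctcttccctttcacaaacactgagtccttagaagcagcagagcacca
Rsad2: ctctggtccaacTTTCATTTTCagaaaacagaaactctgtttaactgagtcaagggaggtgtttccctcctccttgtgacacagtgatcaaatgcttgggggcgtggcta
Gbp2: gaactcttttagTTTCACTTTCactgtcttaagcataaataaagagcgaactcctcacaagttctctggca
Ifit1: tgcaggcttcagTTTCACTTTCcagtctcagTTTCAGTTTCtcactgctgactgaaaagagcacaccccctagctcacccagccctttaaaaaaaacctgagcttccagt
Cxcl10: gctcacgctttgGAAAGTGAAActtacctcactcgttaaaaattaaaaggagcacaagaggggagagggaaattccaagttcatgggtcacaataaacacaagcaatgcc
The first match lay 78 bases before the start in Isg15, 156 in Ifit3, 120 in Rsad2, 59 in Gbp2, 104 in Ifit1 and 213 in Cxcl10. The window of Irf7, which fell in every line without a wild-type allele except V303M/V303M, held no such letters, and neither did the window of Ifi35, which rose in 4 of them. Nor did those of Ifit2, Cmpk2, Ifi44, Parp12 and Lgals3bp, which fell in at least 5, or of Ube2l6, which rose in 1. Usp18 and Mx1, which also rose in some, had no entry.

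Library totals ran from 1016619 to 7225403 counts. Mean Aire level was 1685 to 2626 CPM in the wild-type groups, 3162 and 3192 CPM in the Aire -/- groups of B6 and NOD, and up to 4293 CPM in Aire C313X/C313X, so the 3′ tag still counts transcript from the null allele and checks none of the labels. Of 13 markers of mTEChi, none was at 0 in the B6 null table, and their summed level was 44300 to 46400 CPM in the B6 null table's wild type. Per-library values below are CPM of the library total, while log2 changes use TMM factors, which scale each library on its middle genes. In the 6 comparisons of mutants without a wild-type allele other than V303M/V303M, the median log2 change of all genes shifted by -0.11 to -0.25 when library totals alone were used. A member is called changed at an edgeR quasi-likelihood p, adjusted over all genes tested in that comparison, under 0.05, and errors on log2 changes are standard errors.

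**Figure D1:**
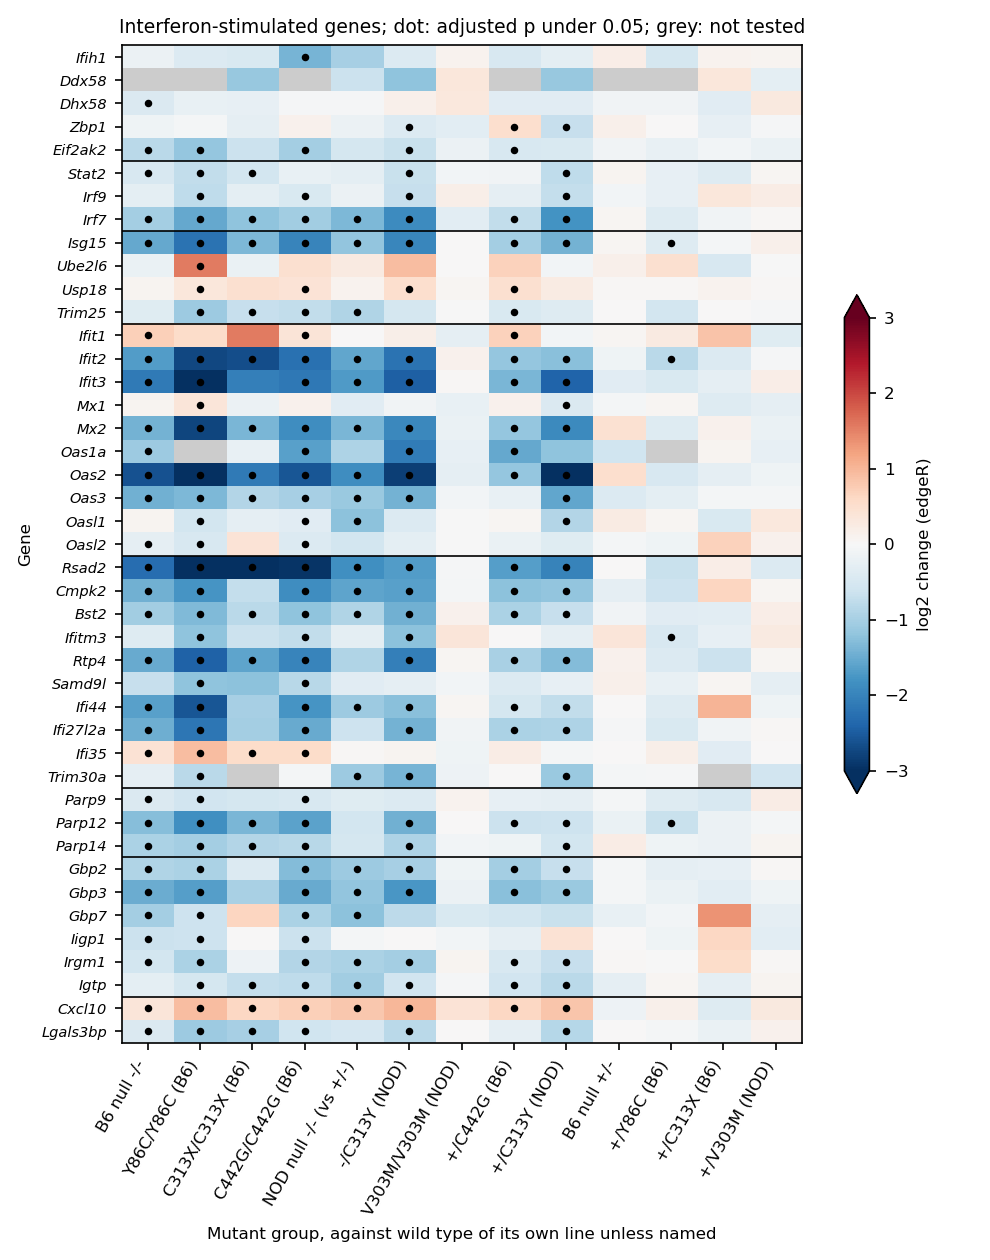
Log2 change (colour) of 43 members (vertical axis) in 13 comparisons of a mutant group with the reference group of its own table (horizontal axis), with a dot where the adjusted p is under 0.05 and grey where a member was not tested. Most members are lower in the mutants without a wild-type allele, V303M stands without calls, and Cxcl10 is called higher in 6 of 6 of the other comparisons of that kind.

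Across the 6 comparisons of B6 Aire -/-, Y86C/Y86C, C313X/C313X, C442G/C442G, NOD Aire -/- and NOD -/C313Y with their references, 32 of 43 members were called lower in at least 3 and higher in none, as were 15.7% of the 14919 genes tested in at least 1 of the 6. The 8 called lower in all 6, where 4.3% of all genes were, were Irf7, the transcription factor that amplifies interferon production, Isg15, a ubiquitin-like modifier, Ifit2, which binds viral RNA, Mx2, a dynamin-like GTPase, Oas2 and Oas3, which make the second messenger that activates RNase L, Rsad2, the antiviral enzyme viperin, and Bst2, which tethers budding virions. A further 11 were lower in 5 of the 6 and higher in none (2.59% of all genes), namely Ifit3, Cmpk2, Rtp4, Ifi44, Parp12, Parp14, Gbp2, Gbp3, Irgm1, Igtp and Lgals3bp. The members that moved the other way were few: Cxcl10, a chemokine for CXCR3-bearing T cells, was called higher in 6 of 6 (2.02% of all genes), Ifi35 in 4, Usp18 in 3, Ifit1 in 2, and Ube2l6 and Mx1 in 1 each. No member was called higher in some of the 6 and lower in others.

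The lowest log2 values were those of antiviral effectors. Oas2 ranged from -5.25 to -1.86 over the 6 comparisons on the log2 scale (median -2.59), Rsad2 from -3.53 to -1.68 (median -2.61), Ifit2 from -2.74 to -1.57, Ifit3 from -3.67 to -1.70 and Mx2 from -2.76 to -1.36. Isg15 ranged from -2.22 to -1.18 and Irf7 from -1.89 to -1.03. Stat2 and Irf9, subunits of ISGF3, ranged from -0.73 to -0.23 and from -0.77 to -0.18, and were called in 4 and 3 of the 6. Among the sensors, Eif2ak2 (PKR), which halts translation on double-stranded RNA, ranged from -1.16 to -0.53 and was called in 4. Dhx58 (LGP2) ranged from -0.43 to 0.16 and Zbp1, a sensor of Z-form nucleic acid, from -0.41 to 0.12, each called in 1. Ddx58 (RIG-I), at a mean of 2.77 CPM, was tested in 3 of the 6 and called in none.

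The members with the most counts did not all take the same course. By role, the highest mean levels over the 73 libraries were those of Cxcl10 (1860.0 CPM, from 761 to 3757), Ifitm3, a membrane protein that blocks virus entry (1153 CPM, from 283 to 2682), Usp18 (306 CPM), Iigp1 (186 CPM), Oasl2 (181 CPM), Irf7 (175 CPM), Zbp1 (124 CPM) and Parp14 (44.3 CPM). Cxcl10 and Usp18 were called higher where called in the 6 comparisons, and the other 6 lower. Ifitm3 was called in 3 of the 6. Its level was 730.1, 809 and 1111 CPM in the Y86C wild type, 599, 612 and 612 in Aire +/Y86C and 283, 329 and 359 in Aire Y86C/Y86C (-1.20 ± 0.12 in the homozygote).

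Among the other antiviral proteins, Bst2 in the B6 null table was 185, 199 and 228 CPM in wild type and 85.1, 93.5, 94.5 and 96.2 in Aire -/- (-1.04 ± 0.13). Ifi27l2a, a small hydrophobic protein, was 1088, 1119 and 1132 CPM in the same wild-type libraries and 288, 346, 429.2 and 432.95 in Aire -/- (-1.47 ± 0.21, adjusted p = 0.000318). Neither gene overlapped between the groups. Ifi44 was 34.8, 62.3 and 72.2 CPM in the Y86C wild type and 6.47, 8.48 and 9.13 in Aire Y86C/Y86C (-2.56 ± 0.26, adjusted p = 1.68e-07). Cmpk2, a nucleotide kinase encoded beside Rsad2, was 13.8, 14.8 and 15.4 CPM in NOD Aire +/- and 2.6, 4.56 and 5.93 in NOD Aire -/- (-1.58 ± 0.33, adjusted p = 0.00135).

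The guanylate-binding proteins, GTPases that attack pathogen vacuoles, also fell. Gbp3 was 37.0, 37.2 and 38.8 CPM in the C442G wild type, 13.4 to 16.9 in Aire +/C442G and 7.38 to 16.9 in Aire C442G/C442G, both mutant groups lying below wild type (-1.25 ± 0.20 and -1.51 ± 0.19). Gbp2 was 43.9, 50.5 and 51.1 CPM in NOD Aire +/- and 16.3, 20.6 and 24.3 in NOD Aire -/- (-1.08 ± 0.22, adjusted p = 0.000843). Gbp7 was lower in 4 of the 6 but was near the limit of counting in the C313X table, where its wild-type libraries held 0, 2.71 and 6.44 CPM and the change was 0.65 ± 1.04 (adjusted p = 0.702). Of the PARP enzymes, Parp14 was 52.2, 68.6 and 76.7 CPM in wild type and 24.9, 32.6 and 38.2 in Aire -/C313Y (-0.92 ± 0.22, adjusted p = 0.00244). Lgals3bp, a secreted glycoprotein, was 243, 262 and 279 CPM in the Y86C wild type and 92.1, 105 and 114 in Aire Y86C/Y86C (-1.10 ± 0.10, adjusted p = 6.11e-11), the opposite course to Cxcl10, the other secreted member.

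The B6 null allele was compared first. In Aire -/- cells 27 of 42 tested members fell and 3 rose (Ifit1, Ifi35 and Cxcl10), which is 71.4% of the members, where 36.6% of all genes tested were called, 18.9% lower and 17.7% higher. The median log2 change of the members was -0.66, against -0.01 over all genes. By role, 7 of 10 IFIT, OAS and MX genes, 5 of 6 GTPases, 3 of 3 PARP enzymes and 6 of 10 other antiviral genes fell. Among the sensors 2 of 4 fell.

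Isg15 stood at 190.0, 191 and 196 CPM in the wild-type libraries and at 52.6, 63.3, 63.7 and 67.4 in Aire -/-. The groups did not overlap, and Isg15 fell by 1.53 ± 0.16 on the log2 scale (adjusted p = 1.01e-06). Irf7 fell by 1.03 ± 0.17 (adjusted p = 0.000289), from 198, 224 and 227 CPM to 87.8, 95.1, 101 and 107. Rsad2 was 12.03, 18.3 and 19.6 CPM in wild type and 2.76, 3.01, 3.08 and 3.61 in Aire -/-, a fall of 2.28 ± 0.31 (adjusted p = 1.04e-06). In the same libraries Oas2 was low, with 4.73, 7.29 and 8.76 CPM in wild type and 0.400, 0.750, 1.38 and 1.54 in Aire -/-. Its log2 change of -2.61 ± 0.50 (adjusted p = 0.000115) was the lowest of the members there.

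Ifit1, which binds viral RNA like its neighbours Ifit2 and Ifit3 on chromosome 19, went the other way from both. It was 167, 168 and 182 CPM in wild type and 225, 261, 263 and 317 in Aire -/-, with no overlap and a log2 change of 0.72 ± 0.09 (adjusted p = 3.56e-07). Ifit3 fell by 2.13 ± 0.21 (adjusted p = 1.82e-09), although reads of Ifit3 and its near-identical copy Ifit3b cannot be separated with certainty. Ifi35, an IFN-induced leucine-zipper protein, rose from 293, 309 and 334 CPM to 337, 381, 383 and 461, a log2 change of 0.43 ± 0.09 (adjusted p = 0.000606). Cxcl10 rose from 816, 1020.3 and 1079 CPM to 1107, 1129, 1214 and 1228 (0.37 ± 0.09, adjusted p = 0.002).

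With 1 null allele no member was called. In Aire +/- against wild type, 0 of 42 members were called by edgeR and 0 by DESeq2, and the median was 0. An unadjusted p under 0.05 was found for 4 of the 42 and for 1185 of all 12700 genes tested, a similar share. In that comparison 0.48% of all genes were called. Isg15 in the 5 Aire +/- libraries was 149, 172, 198, 209 and 277 CPM, on both sides of the 3 wild-type values. Against Aire +/-, Aire -/- libraries had 29 members lower and 3 higher of 42, with 33.8% of all genes called, 17.5% lower and 16.3% higher. The 3 were again Ifit1 (0.67 ± 0.08), Cxcl10 (0.52 ± 0.08) and Ifi35 (0.41 ± 0.08). The 2 comparisons of Aire -/- share their mutant libraries.

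The largest share of called members was in the Y86C homozygote. In Aire Y86C/Y86C cells 32 of 41 members fell and 5 rose, 90.2% in all, where 49.6% of all genes tested were called, 27.9% lower and 21.7% higher. The members' median was -1.02, against -0.03 over all genes. All 6 GTPases, 3 of 3 PARP enzymes, 3 of 3 signalling factors and 9 of 10 other antiviral genes fell, while 1 of 4 sensors did.

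Isg15 stood at 191, 192 and 244 CPM in wild type, at 147, 152 and 167 in Aire +/Y86C and at 33.9, 39.3 and 39.4 in Aire Y86C/Y86C. The 3 genotypes did not overlap, and the fall in the homozygote was 2.22 ± 0.12 (adjusted p = 5.8e-16). Irf7 went from 157, 183 and 221 CPM to 48.1, 51.1 and 64.9, a log2 change of -1.54 ± 0.13. Oas2 had 89 counts over the 3 wild-type libraries and 2 over the 3 homozygous ones, 53.5-fold lower with a 95% counting interval of 14.4 to 448. Ifit3 was 16.6, 19.2 and 21.1 CPM in wild type and 0.880, 1.0 and 1.66 in the homozygote (log2 change -3.67 ± 0.37, adjusted p = 8.47e-10).

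Ube2l6, the conjugating enzyme that transfers ISG15 to its targets, rose where Isg15 fell. Its level was 66.8, 70.5 and 106 CPM in wild type and 185, 189 and 231 in Aire Y86C/Y86C, a log2 change of 1.57 ± 0.43 (adjusted p = 0.0225), and the 3 heterozygous libraries were at 48.0, 121 and 164 CPM, 1 of them below every wild-type library. The Ube2l6 call was lost without wild-type library 1 (1.48, adjusted p = 0.0712), wild-type library 2 (1.47, adjusted p = 0.0755) or homozygous library 4 (1.46, adjusted p = 0.0676). Ifi35 rose from 225, 231 and 256 CPM to 358, 375 and 409 (0.93 ± 0.09, adjusted p = 4.06e-10). Cxcl10 rose from 1789.7, 1859.9 and 2095 CPM to 2512, 2924 and 3757 (0.92 ± 0.14, adjusted p = 0.000178). The calls of Usp18, the protease that removes ISG15 and restrains the receptor (0.34 ± 0.09, adjusted p = 0.00135), and of Mx1 (0.37 ± 0.15, adjusted p = 0.042) came with overlapping libraries. With library totals alone the 2 changes were 0.09 (adjusted p = 0.401) and 0.12 (adjusted p = 0.542), so neither is called on that scale.

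In Aire +/Y86C 4 of 41 members fell and 0 rose (9.76%, against 3.37% of all genes, 1.04% lower and 2.32% higher), and 32 of the 41 had a negative log2 change, with a median of -0.25. The 4 were Ifit2 (-0.80 ± 0.22, adjusted p = 0.0388), Parp12 (-0.67 ± 0.18, adjusted p = 0.0363), Ifitm3 (-0.48 ± 0.12, adjusted p = 0.0359) and Isg15 (-0.38 ± 0.10, adjusted p = 0.0366). Parp12, a mono-ADP-ribosyltransferase, was 31.6, 31.7 and 34.1 CPM in wild type and 16.4, 18.8 and 22.9 in the heterozygote, without overlap. The homozygous and heterozygous comparisons share the wild-type libraries. Only 2 members were called with DESeq2 in the heterozygote, and none without wild-type library 3, 1 without heterozygous library 10 or 14 and 2 without heterozygous library 3.

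In Aire C313X/C313X 15 of 42 members fell and 2 rose, 40.5% where 23.1% of all genes were called, 15.2% lower and 7.85% higher. The median of the members was -0.66, against -0.03 over all genes. Signalling factors fell in 2 of 3, and IFIT, OAS and MX genes in 4 of 10. Of the 6 GTPases only 1 was called, and of the 5 sensors none. An unadjusted p under 0.05 was found for 23 of the 42 members and for 4861 of all 13626 genes tested. Without homozygous library 1 the called members numbered 8 and without homozygous library 10 they numbered 9.

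Rsad2 fell from 22.7, 32.9 and 46.0 CPM to 1.60, 2.16 and 6.65, a log2 change of -3.05 ± 0.45 (adjusted p = 0.000989). Ifit2 fell from 10.2, 13.8 and 18.7 CPM to 0.540, 1.60 and 3.80 (-2.67 ± 0.53, adjusted p = 0.0041). For Isg15 the wild-type libraries were 136, 170.2 and 202 CPM and the homozygous ones 38.9, 56.8 and 77.8 (-1.35 ± 0.27, adjusted p = 0.00511). Irf7 was 239, 283 and 312 CPM in wild type and 77.3, 92.6 and 145 in the homozygote, and its log2 change was -1.21 ± 0.24.

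Cxcl10 rose from 1784, 1983 and 2111 CPM to 2315, 2487 and 3057 (0.62 ± 0.17, adjusted p = 0.0187). Ifi35 rose from 338, 351 and 363 CPM to 414, 454 and 462 (0.54 ± 0.13, adjusted p = 0.0113). Several members differed widely among the wild-type libraries of this table. Ifit1 was 9.49, 42.3 and 108 CPM in them and 109, 123 and 139.7 in the homozygote, and its log2 change of 1.56 ± 0.70 was not called (adjusted p = 0.151). Aire +/C313X, with 2 libraries, had 0 of 42 members called by edgeR and 0 by DESeq2, while 0% of all genes were called. An unadjusted p under 0.05 was found for 3 members and for 440 of all 13626 genes tested. Aire +/C313X shares its wild-type libraries with the homozygote.

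With the C442G allele, members fell in heterozygotes as well as in homozygotes. In Aire C442G/C442G 32 of 42 members fell and 4 rose (85.7%, against 42.6% of all genes, 23.1% lower and 19.5% higher), with a median of -0.87. In Aire +/C442G 20 fell and 4 rose (57.1%, against 26.5% of all genes, 13.4% lower and 13.1% higher), with a median of -0.47. All 6 GTPases and 8 of 10 IFIT, OAS and MX genes fell in the homozygote, and 4 of 6 and 5 of 10 in the heterozygote. Both comparisons use the same 3 wild-type libraries.

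Isg15 was 181, 202 and 206 CPM in wild type, 70.5, 76.4, 80.0, 99.8 and 116 in Aire +/C442G, and between 34.2 and 51.7, with a median of 44.3, in the 6 homozygous libraries. The 3 genotypes formed separate ranges, with log2 changes from wild type of -1.02 ± 0.15 and -1.98 ± 0.14 (adjusted p = 3.07e-12 in the homozygote). Irf7 had 158, 160.2 and 165 CPM in wild type, 69.6 to 105 in the heterozygote and 55.7 to 81.1 in the homozygote, so the 2 mutant groups overlapped. Rsad2 was 11.4, 24.9 and 35.3 CPM in wild type, 4.75 to 10.1 in the heterozygote and 1.41 to 3.26 in the homozygote, without overlap. Its changes were -1.66 ± 0.27 (adjusted p = 3.03e-05) and -2.94 ± 0.29 (adjusted p = 7.48e-10).

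Cxcl10 was 1142, 1158 and 1269 CPM in wild type and 1493, 1538, 1632, 1810.0 and 1914 in Aire +/C442G, a rise of 0.62 ± 0.15 (adjusted p = 0.0028). In the homozygote it was 1174 to 2166 CPM, overlapping wild type in 1 library (0.71 ± 0.15, adjusted p = 0.00025). Ifi35 rose in the homozygote from 313, 319 and 351 CPM to between 391 and 444 (0.54 ± 0.11, adjusted p = 0.000124). Ifit1 was called higher in both, with changes of 0.70 ± 0.14 in the heterozygote and 0.38 ± 0.14 in the homozygote (adjusted p = 0.0293). Usp18 was also called in both, at 0.49 ± 0.11 and 0.42 ± 0.11. With library totals alone the homozygote lost the calls of Ifit1 (0.17, adjusted p = 0.349) and Usp18 (0.21, adjusted p = 0.114). Zbp1 was called higher in Aire +/C442G, at 125 to 192 CPM against 107, 114 and 139 in wild type (0.51 ± 0.13, adjusted p = 0.00439).

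**Figure D2:**
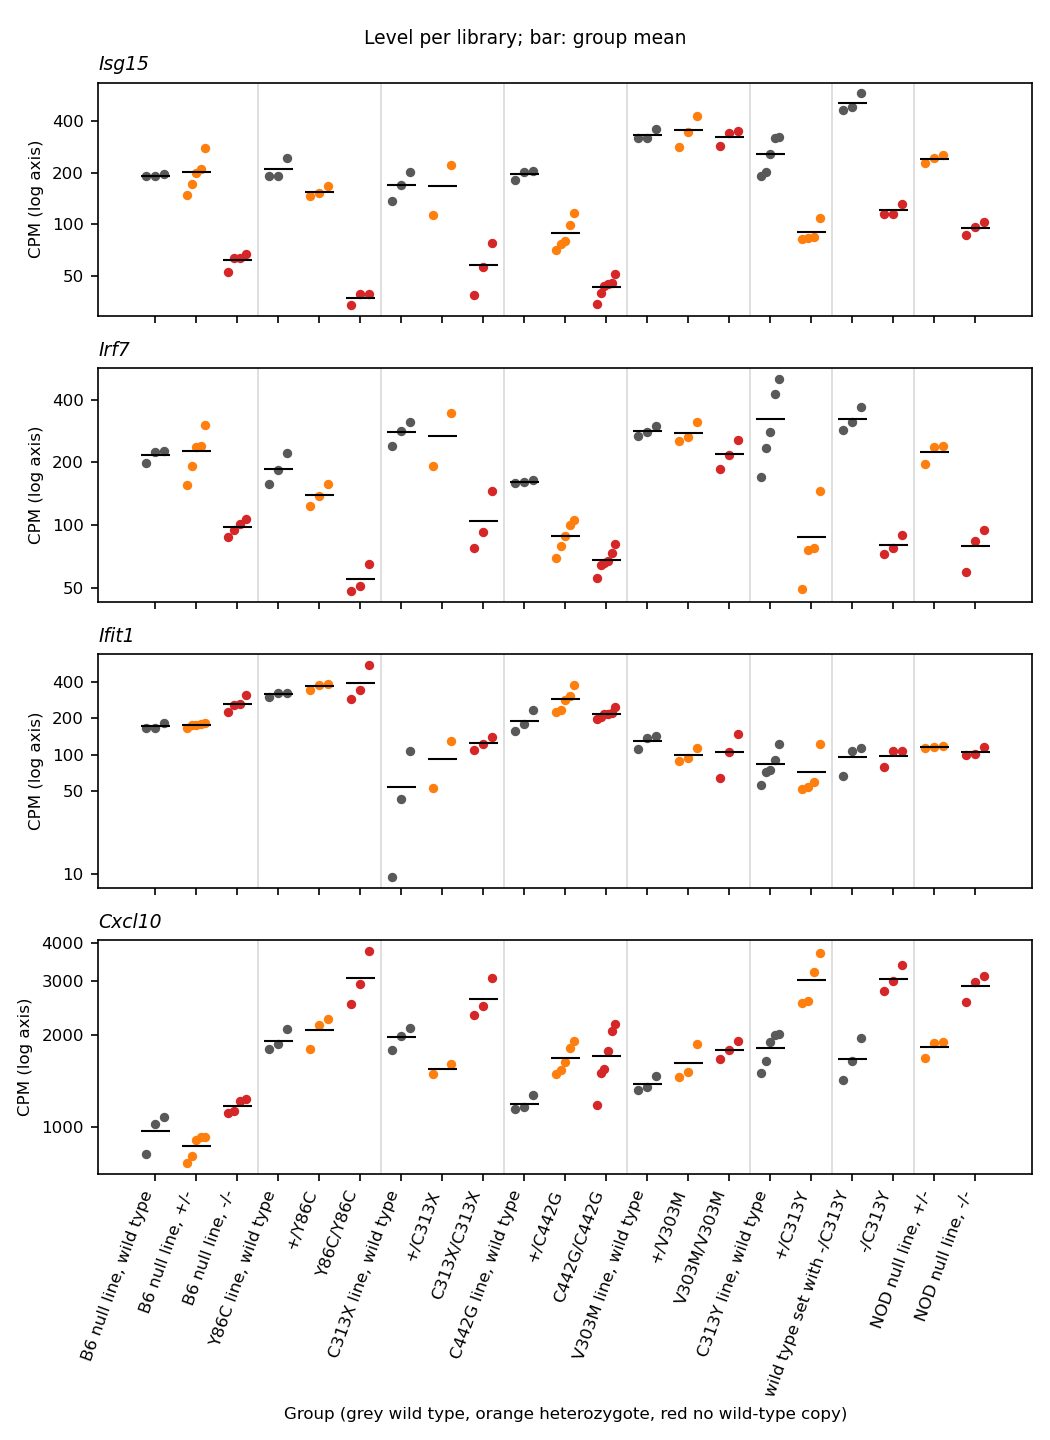
Level in CPM (vertical axis, log scale) of Isg15, Irf7, Ifit1 and Cxcl10 in each library (points) of the 21 groups (horizontal axis), coloured by genotype (grey for wild type, orange for 1 wild-type allele, red for none), with a bar at the group mean. Isg15 in the V303M/V303M libraries, at 285 to 348 CPM, overlaps its wild type at 318 to 361, whereas Isg15 in -/C313Y, at 115 to 131, lies below its own at 462 to 581.

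With the V303M allele, on NOD, no member was called. In Aire V303M/V303M edgeR called 0 of 43 members and DESeq2 called 0, and the median was -0.03, with 0.0657% of all genes called, 0.0511% lower and 0.0146% higher. An unadjusted p under 0.05 was found there for 4 members and for 795 of all 13700 genes tested. In Aire +/V303M both tools called 0 of 43 and the median was 0.03, with 0% of all genes called. There 0 members and 499 of all 13700 genes had an unadjusted p under 0.05. Isg15 was 318, 319.5 and 361 CPM in wild type and 285, 341 and 348 in the homozygote. Irf7 was 268, 280.0 and 298 CPM in wild type and 186, 217 and 255 in the homozygote, which did not overlap but was not called. Cxcl10, at 1319.9, 1354 and 1465 CPM in wild type and 1669.9, 1779 and 1913 in the homozygote, did not overlap either (0.42 ± 0.14, adjusted p = 0.499). In data simulated from these libraries, with 200 changed genes, the test called 74.6% of genes changed by 2-fold and 13.4% of those changed by 1.5-fold.

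The NOD null allele could be compared only with Aire +/-. In Aire -/- 19 of 43 members fell and 1 rose (46.5%, against 13.3% of all genes, 9.11% lower and 4.21% higher), with a median of -0.90, against -0.02 over all genes. Of the GTPases 5 of 6 fell, of the IFIT, OAS and MX genes 6 of 10, and of the sensors and PARP enzymes none. An unadjusted p under 0.05 was found for 27 of the 43 members and for 3285 of all 13827 genes tested. Isg15 was 227, 242 and 252 CPM in Aire +/- and 87.2, 96.3 and 104 in Aire -/-, a fall of 1.18 ± 0.18 (adjusted p = 2.51e-05). The falls of Rsad2, from 17.9, 23.9 and 24.4 CPM to 4.34, 5.93 and 6.51 (1.83 ± 0.40, adjusted p = 0.00186), and of Oas2, from 12.6, 16.0 and 22.7 to 2.6, 3.91 and 5.53 (1.86 ± 0.51, adjusted p = 0.0155), also left no overlap. Cxcl10, the only member that rose, went from 1681, 1880.0 and 1899.8 CPM to 2565, 2986 and 3121 (0.82 ± 0.17, adjusted p = 0.000975).

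With the C313Y allele, members fell also beside a wild-type allele. In Aire +/C313Y 26 of 43 fell and 1 rose (62.8%, against 17.4% of all genes, 11% lower and 6.36% higher), with a median of -0.69. In Aire -/C313Y, against its own 3 wild-type libraries, 27 fell and 2 rose (67.4%, against 22.7% of all genes, 12.9% lower and 9.83% higher), with a median of -0.92. The signalling factors fell in 3 of 3 in both. IFIT, OAS and MX genes fell in 7 and 6 of 10, other antiviral genes in 7 and 8 of 10, and GTPases in 4 of 6 in each.

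Isg15 was 191, 202, 256, 319 and 321 CPM in wild type and 82.4, 83.5, 84.4 and 109 in Aire +/C313Y (-1.41 ± 0.15, adjusted p = 5.07e-08). In the other wild-type set it was 462, 483 and 581 CPM, above the first set, and 115, 116 and 131 in Aire -/C313Y (-1.96 ± 0.17, adjusted p = 5.85e-09). Irf7 varied in the first wild-type set, at 169, 235, 279, 426 and 502 CPM, and all 4 Aire +/C313Y libraries lay below it at 49.4, 75.6, 77.8 and 146. Oas2 was 18.47, 22.3, 22.3, 41.9 and 64.4 CPM in wild type and 2.28, 2.86, 3.65 and 7.22 in Aire +/C313Y, a fall of 2.98 ± 0.40 (adjusted p = 6.9e-06). In Aire -/C313Y Oas2 was 4.06, 5.48 and 6.44 CPM against 32.9, 37.0 and 53.9 (-2.82 ± 0.43, adjusted p = 3.14e-05).

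Cxcl10 rose in both, from 1495, 1641, 1897, 1995 and 2018 CPM to 2542, 2587, 3213 and 3704 in Aire +/C313Y (0.84 ± 0.14, adjusted p = 4.08e-05), and from 1427, 1635 and 1945 to 2777, 3003 and 3378 in Aire -/C313Y (0.99 ± 0.17, adjusted p = 6.39e-05). Usp18 was 225, 284 and 305 CPM in wild type and 322, 324 and 415 in Aire -/C313Y (0.51 ± 0.15, adjusted p = 0.015), a call lost with library totals alone (0.38, adjusted p = 0.0815). Ifit1 was not called in either, at -0.08 and 0.17 (adjusted p = 0.738 in Aire -/C313Y). Zbp1 fell in both, by 0.68 ± 0.12 (adjusted p = 0.00015) and 0.41 ± 0.14 (adjusted p = 0.0416), whereas it was called higher in Aire +/C442G on B6. Mx1 was called lower in Aire +/C313Y (-0.43 ± 0.15), at 25.5 to 37.6 CPM against 34.3 to 50.9, and higher in Aire Y86C/Y86C, the call that library totals alone did not give.

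Whether the null allele acted alike on the 2 strains was tested directly, as the difference between NOD and B6 in the change from Aire +/- to Aire -/-. Of 42 members, 3 differed downward and 1 upward (9.52%, against 3.91% of all genes, 1.74% downward and 2.17% upward), and the median difference was 0.07. With library totals alone the split was 4 downward and 0 upward. Strain and table cannot be told apart in this test.

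Oasl1, an OAS-like protein that holds back translation of Irf7, fell on NOD from 73.4, 74.2 and 80.2 CPM to 24.5, 30.8 and 33.2. On B6 it was 82.02 to 104 CPM in Aire +/- and 71.9 to 93.2 in Aire -/- (-0.16 ± 0.10, adjusted p = 0.247), and the difference between strains was -1.05 ± 0.18 (adjusted p = 0.000372). Igtp, an immunity-related GTPase, fell on NOD from 134, 136 and 149 CPM to 59.9, 59.9 and 64.0, while on B6 it was 56.4 to 68.0 and 48.3 to 67.4 CPM (difference -1.01 ± 0.17, adjusted p = 0.000229). Ifit1 was 114, 116 and 118 CPM in NOD Aire +/- and 99.6, 102 and 116 in NOD Aire -/- (0.01 ± 0.28, adjusted p = 0.988), without the rise measured on B6 (difference -0.64 ± 0.14, adjusted p = 0.00509). Iigp1, another immunity-related GTPase, differed the other way (0.62 ± 0.16, adjusted p = 0.0245), falling on B6 by 0.65 ± 0.11 and standing at 338, 389 and 419 CPM against 315, 324 and 355 on NOD. With library totals alone the Iigp1 difference was 0.54 (adjusted p = 0.0538).

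Most members stood higher in wild-type NOD cells than in wild-type B6 cells, but few passed the test. The wild-type libraries were summed by line, or by wild-type set in the NOD table with C313Y, giving 4 B6 sums and 3 NOD sums. Of the NOD sums 2 thus come from the same table. The test treats them as independent, so its p-values may be too small. Of 43 members 37 had a positive log2 difference, with a median of 0.38, and 2 were called higher on NOD and 0 lower (4.65%, against 3.83% of all genes, 1.26% higher and 2.57% lower). Rtp4, a chaperone of receptors at the cell surface, was 25.2, 33.4, 36.4 and 49.4 CPM in the B6 sums and 67.5, 69.1 and 84.5 in the NOD sums (1.05 ± 0.24, adjusted p = 0.0386). Ifit3 was 14.4, 19.0, 25.1 and 32.6 CPM on B6 and 47.6, 53.6 and 68.0 on NOD (1.32 ± 0.28, adjusted p = 0.0281). Isg15, at 162 to 208 CPM on B6 and 252 to 518 on NOD, did not overlap and was not called (1.0, adjusted p = 0.0759). Both calls were lost without the C442G wild type of B6 or without any 1 of the NOD sets, 1 remained without the Y86C wild type, and 9 members were called without the C313X wild type. Over the 7 omissions of 1 sum, the number of all genes called ran from 190 to 1447, against 559 with every sum. Strain and table cannot be told apart here either.

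**Figure D3:**
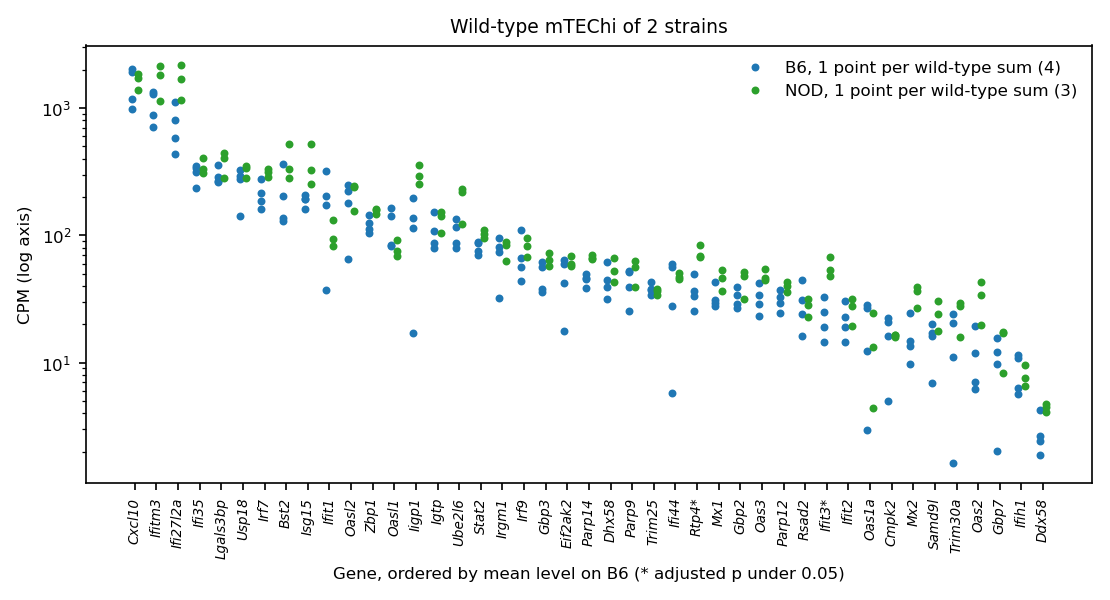
Level in CPM (vertical axis, log scale) of each member (horizontal axis, ordered by mean level on B6) in the 4 wild-type sums of B6 and the 3 of NOD (points, coloured by strain), with an asterisk on the 2 members called. Rtp4, at 25.2 to 49.4 CPM on B6 and 67.5 to 84.5 on NOD, and Ifit3 do not overlap between strains.

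The ligands that induce the members had few counts in many libraries, and most could not be tested. Of 21 interferon genes listed, only Ifnb1, Ifng, Ifnl2 and Ifnl3 were ever tested. Ifnb1, the gene of interferon beta, had 13, 13 and 16 counts in the C442G wild-type libraries, 1 to 9 in Aire +/C442G and 0 to 3 in Aire C442G/C442G (-4.01 ± 0.59, adjusted p = 1.1e-06 in the homozygote). In NOD Aire -/- all 3 libraries had 0 counts of it against 17 in Aire +/-, at least 3.71-fold lower when 3 counts are set as the group's floor (adjusted p = 0.0445). Ifnl2, the gene of an interferon lambda, had 3 to 45 counts in wild type and 0 to 1 in Aire +/C313Y, 99 against 3 in sum, a ratio of 26.1 with a counting interval of 8.66 to 129 (adjusted p = 3.13e-05). No ligand was called in B6 Aire -/-, C313X/C313X or -/C313Y.

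Several transcription factors of the pathway outside the member list rose. Counts over the pathway lists stand against the shares of all genes called higher and lower, which were 17.7% and 18.9% in B6 Aire -/-, 21.7% and 27.9% in Y86C/Y86C, 7.85% and 15.2% in C313X/C313X, 19.5% and 23.1% in C442G/C442G, 4.21% and 9.11% in NOD Aire -/-, and 9.83% and 12.9% in -/C313Y. Of 6 further STAT and IRF genes tested, 5 rose in B6 Aire -/-, 5 in Y86C/Y86C, 2 in C313X/C313X, 5 in C442G/C442G, 2 in NOD Aire -/- and 4 in -/C313Y. Irf8, a factor of antigen-presenting cells, was higher in all 6, by 1.30 in B6 Aire -/-, where it was 279.7 to 295 CPM in wild type and 625.5 to 678 in the mutant, and by 1.20 in -/C313Y. Stat3, which serves interleukin-6 family receptors, was also higher in all 6, although its call in NOD Aire -/- (0.56 ± 0.18) was lost with library totals alone (0.41, adjusted p = 0.149).

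Of 9 receptor and kinase genes, 1 rose and 3 fell in B6 Aire -/-, 2 and 1 in Y86C/Y86C, 0 and 1 in C313X/C313X, 2 and 1 in C442G/C442G, and none in NOD Aire -/- or -/C313Y. Ifnlr1, the receptor chain for interferon lambda, fell in B6 Aire -/- (-1.21 ± 0.46, adjusted p = 0.0411), Y86C/Y86C (-1.62 ± 0.58) and C442G/C442G (-1.15 ± 0.45). Among 8 inhibitors, 2 rose and 1 fell in B6 Aire -/-, 2 and 1 in Y86C/Y86C, 0 and 1 in C313X/C313X, 3 and 2 in C442G/C442G, 1 and 1 in NOD Aire -/-, and 2 and 1 in -/C313Y. Socs1, which blocks JAK kinases, rose in 5 of the 6, with log2 changes of 0.52 to 0.68, and its calls in NOD Aire -/- (0.38, adjusted p = 0.138) and -/C313Y (0.39, adjusted p = 0.0761) were lost with library totals alone. Samhd1, which hydrolyses deoxynucleotides, fell in C313X/C313X (-0.62 ± 0.19), NOD Aire -/- (-0.64 ± 0.19) and -/C313Y (-0.71 ± 0.18). Trex1, a DNA exonuclease, fell in B6 Aire -/- (-0.46 ± 0.08) and Socs3 in Y86C/Y86C (-0.53 ± 0.18). Isg20, an RNA exonuclease, fell in C442G/C442G (-0.66 ± 0.14) but rose in +/C313Y (0.83 ± 0.17, adjusted p = 0.000555). It is also counted in the next list. Of 54 further interferon-stimulated genes listed, 19 fell and 7 rose of 47 tested in B6 Aire -/-, 21 and 11 of 45 in Y86C/Y86C, 12 and 3 of 46 in C313X/C313X, 21 and 5 of 46 in C442G/C442G, 14 and 0 of 47 in NOD Aire -/-, and 21 and 3 of 47 in -/C313Y. In Y86C/Y86C, B6 Aire -/- and C313X/C313X the share that rose is near that of all genes, and in the other comparisons it is lower. Ifit1bl1, a relative of Ifit1, was among the lowest at -4.00 in B6 Aire -/-. In Y86C/Y86C it had 3 counts against 137, 54.9-fold lower with a counting interval of 18.4 to 269.

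**Figure D4:**
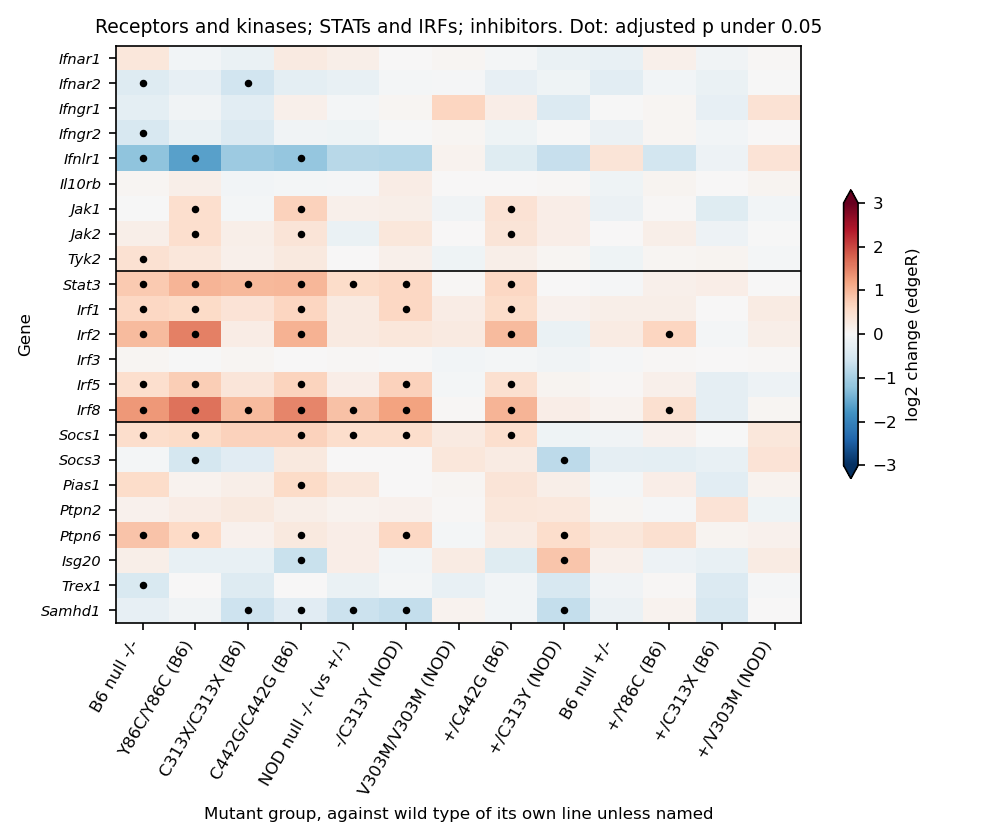
Log2 change (colour) of receptor and kinase genes, STAT and IRF genes and inhibitors of the pathway (vertical axis) in the same comparisons (horizontal axis), with a dot where the adjusted p is under 0.05. Irf8 and Stat3 are higher in the 6 mutants without a wild-type allele other than V303M/V303M.

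Markers of other cells moved in some of the same comparisons. Macrophages and dendritic cells express many of the members too. Of 16 myeloid markers listed, 2 of 13 tested rose and 2 fell in B6 Aire -/-, and their summed level was 1039 to 1271 CPM in wild type and 1059 to 1492 in the mutant. In Y86C/Y86C 2 rose and 6 fell of 11, with summed levels of 904.7 to 938 CPM in wild type and 948 to 1111 in the mutant. In C313X/C313X 0 rose and 9 fell of 12, with 1904 to 3696 CPM in wild type and 1379 to 1590 in the homozygote, with C1qa among those that fell. In C442G/C442G 2 rose and 8 fell of 12, with overlapping sums, in NOD Aire -/- 1 rose and 3 fell of 13, and in -/C313Y 1 rose and 3 fell of 13. In V303M/V303M the summed myeloid level was 1109 to 1288 CPM against 1497 to 1754 in wild type, without overlap. In +/V303M, at 1447 to 1767 CPM, it overlapped wild type. The dendritic-cell markers Xcr1, Clec9a and Ccr9 were absent from the B6 null and Y86C tables or at 0 there. The other 13 of the 16 listed were counted in both, Itgax, Flt3 and Siglech among them. Summed T-cell markers were lower without overlap in Y86C/Y86C (37.0 to 44.4 CPM against 66.6 to 73.6, with 4 of 7 tested called lower and 1 higher), C313X/C313X (61.1 to 85.1 against 153 to 196, 5 of 11 lower), NOD Aire -/- (41 to 74.7 against 95.4 to 241, 4 of 9 lower), -/C313Y (41.6 to 59.4 against 82.2 to 112, 1 of 9 lower) and +/C442G (40.3 to 51.8 against 73.0 to 137, 2 of 8 lower), while they overlapped in B6 Aire -/- and C442G/C442G. T-cell sums were also lower without overlap in +/C313X (117 to 125 CPM against 153 to 196). That group has 2 libraries, and no gene at all was called in it. In +/V303M, also without any called gene, the gap was narrow (87.3 to 125.9 CPM against 126.8 to 144.2). Summed markers of cortical epithelium were higher without overlap in all 6, from 2092 to 2115 CPM to between 3907 and 4941 in B6 Aire -/- and from 3296 to 3727 to between 6408 and 7434 in Y86C/Y86C, with Tbata called higher in all 6 and Ccl25 in 5. They were also higher without overlap in V303M/V303M (1325 to 1633 CPM against 951 to 1046) and +/V303M (1156 to 1193), where no member and at most 0.0657% of all genes were called. The same held for B6 Aire +/- (2333 to 3096 CPM against 2092 to 2115), where no member and 0.48% of all genes were called. Cortical sums were higher too in +/Y86C (5000 to 5310 CPM), +/C442G (3826 to 5052 against 2844 to 3747) and +/C313Y (1440 to 2206 against 725 to 1237). In +/C313X they overlapped wild type. Of 13 mTEChi markers 10 rose and 2 fell in B6 Aire -/-, 10 and 3 in Y86C/Y86C, 8 and 2 in C442G/C442G, 3 and 1 in C313X/C313X, 4 and 0 in NOD Aire -/- and 6 and 0 in -/C313Y. The part of all these markers in the member changes was not tested.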

How the data were processed

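Bulk MARS-seq libraries were made from sorted mTEChi after digestion of thymi with Liberase TH and DNase and RNA capture on Dynabeads, per the labels' protocols. The files hold raw counts per gene, deposited by the authors beside their own normalized columns, and 148 such per-sample columns were not used. Per the submitters' processing notes, the tools were bcl2fastq, cutadapt, STAR 2.4.2a, HTSeq and DESeq2, with build mm10. Whether strand was used in counting is not given in the sources used here, and near-identical copies (Ifit3 and Ifit3b, Oas1a and Oas1g) are uncertain. The tables list only genes whose highest count was at least 6. No 2 libraries of a table were identical (0 of 479 pairs).

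From the counts, each table was fitted with the edgeR 4.0.16 quasi-likelihood test (R 4.3.3, limma 3.58.1) after filterByExpr and TMM scaling, with all groups of the table in 1 fit and Benjamini-Hochberg adjustment over all genes tested at 0.05. The strain test of the null allele used the 15554 genes shared by both null tables. The wild-type comparison used sums over each line, or over each wild-type set of the NOD table with C313Y. Alternatives were DESeq2 1.42.0, other scaling (RLE factors and, chosen after seeing the data, library totals alone), no filter, only the compared groups, and leaving out each library. The 1 library that is titled wild type but carries the genotype label Aire -/- entered no comparison. Genes named were up to 4 called members in each direction with the largest change and at least 5 CPM in the higher group, called members moving against the majority, members called the same way in at least 3 comparisons or in opposite ways, and up to 3 called genes of each pathway list. Members and lists were chosen with earlier results of these data known, and 1 gene of the pathway lists is not reported here. On simulated data with 200 changed genes, the test found 85.1% of the genes changed by 2-fold in a simulation of the B6 null homozygote comparison (12523 genes) and 43.3% in that of C313X/C313X (13381 genes), with no wrong sign. Counting intervals are at 95%, floors are 3 counts, and both cover counting error only.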

Additional observations from a re-analysis of the deposited data

Results flagged for a closer look

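Ifit3 in Aire +/C313Y library 75 stood at 18.06 CPM, apart from the other 3 at 9.72 to 11.09. It was the only library so far from the others among 38 sets examined, each a gene in a group of 4 to 10 libraries, and chance alone marks about 1 set in 20. The NOD C313Y wild-type libraries, at 32.3 to 119 CPM, all lay above it.

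The change from Aire +/- to Aire -/- differed between NOD and B6 in 4 members, by an edgeR test of the difference itself. The difference, NOD minus B6 on the log2 scale, was -1.05 for Oasl1, -1.01 for Igtp, -0.64 for Ifit1 and 0.62 for Iigp1. Igtp and Iigp1 were both higher in NOD than in B6 in the Aire +/- libraries, with Igtp at 134 to 149 against 56.4 to 68.0 CPM and Iigp1 at 338 to 419 against 109 to 175 CPM. Strain and table cannot be told apart.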

How the results depend on the processing

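Of 186 results on single genes, tried in 2390 alternatives, none turned direction. The call was lost in 251 alternatives, and 62 of the genes' results lost it at least once. The other 2139 kept the call or gave no adjusted p, which DESeq2 can leave out. The number of members called in Aire +/Y86C, 4, was 2 with DESeq2. The number called between wild-type NOD and B6, 2, was 8 with DESeq2 and 22 with single libraries as replicates. That last setting treats libraries of the same line as replicates of a strain, which they are not. Shares of all genes under these settings are not given, so the counts are not read as results about the members. The median difference between strains in the null effect, 0.07, was -0.01 with library totals alone, and the cause was not tested.

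Leaving out 1 library at a time gave 28 to 31 called members in B6 Aire -/- against wild type and 28 to 34 against Aire +/-. It gave 34 to 38 in Y86C/Y86C, 0 to 5 in +/Y86C, 8 to 21 in C313X/C313X, 32 to 36 in C442G/C442G, 17 to 25 in +/C442G, 14 to 20 in NOD Aire -/-, 25 to 30 in +/C313Y, 25 to 27 in -/C313Y, 3 to 6 for the strain difference and 0 to 9 between wild-type strains. The other comparisons had 0 in every case. All genes called ran from 3958 to 4464 (against wild type) and 3766 to 4150 (against Aire +/-) in B6 Aire -/-. They were 6064 to 6478 in Y86C/Y86C, 218 to 461 in +/Y86C and 2072 to 2950 in C313X/C313X. In C442G/C442G they were 5105 to 5609, in +/C442G 2889 to 3717 and in NOD Aire -/- 1403 to 1543. In +/C313Y they were 1971 to 2775, in -/C313Y 2429 to 2906, and for the strain difference 329 to 573. Libraries whose omission moved a count by over 1.5 times are named beside those results. In data simulated from C313X/C313X and its wild type, with 200 changed genes, 4.48% of 1.5-fold changes were recovered. The measured comparison called 3147 genes, which makes the adjusted threshold less strict, so this share does not carry over to it.

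Of the groups compared, only -/C313Y and its wild type share more than 1 replicate number. Same-numbered libraries correlated at 0.087, -0.073 and 0.282 in their deviations, and differently numbered ones at -0.244 to 0.19. With 3 libraries in each group, whose deviations sum to 0, these values cannot decide whether the numbers pair the libraries. With the replicate block, in a fit of only the compared groups, 32 members were called instead of 29. The share of all genes in that fit is not given, so this is not read as a result about the members.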

Other observations

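Oas1a, an enzyme of the RNase L pathway with a near-identical copy in Oas1g, differed between wild-type groups of 1 strain. On B6 it was 23.7 to 29.9 CPM in the null table, 19.7 to 37.7 in the C442G table, 11.0 to 13.6 in the C313X table and 2.69 to 3.20 in the Y86C table. On NOD it was 2.46 to 8.09 CPM in the wild-type set of +/C313Y and 21.8 to 34.6 in that of -/C313Y.

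Ifng, the gene of interferon gamma, had 5, 6 and 26 counts in the NOD Aire +/- libraries, most of them in 1 library, and 0, 0 and 1 in NOD Aire -/-. It had 2 to 9 counts in B6 Aire +/- and 5 to 21 in B6 Aire -/-.

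The library of the B6 null table that no group received, since its title gives wild type and its genotype label Aire -/-, had 2012668 counts. Isg15 was 141 CPM in it, Irf7 158, Ifit3 16.9, Rsad2 6.96, Ifit1 159.5 and Cxcl10 907.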
